A study of Mus musculus with 7 samples.

Results

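Of 60 type I interferon-stimulated genes, 12 had at least 1 peak in a deposited list of 6395 ATAC-seq peaks that were more open in T follicular helper (Tfh) cells after blockade of the interferon receptor, and 48 had none. The genes come from a list of names, drawn up with earlier results of these data known, and were matched by gene name. The matching rule uses no measured value. STAT and IRF genes are not among them. The 12 genes held 13 peaks, since Adar had 2. They were Adar, Ddx58, Ifih1 and Zbp1 among the nucleic acid sensors, Irgm1 and Gbp3 among the interferon-induced GTPases, and Oas3, Parp9, Sp100, Isg20, Nmi and Tor3a. None of the IFIT, MX, Schlafen, Trim30, Ifi200 or Ly6 members had a row, and neither did Isg15 or its protease gene Usp18. By the same rule 20.4% of all protein-coding genes had a listed peak, so 12 of 60 is near the background and is not a result about these genes.

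ATAC-seq marks open chromatin by the cuts of a transposase. Tfh cells support the germinal centre response of B cells, and were sorted from spleen by the surface phenotype CD4+, CD44+, GITR-, PSGL-1 low, CXCR5 high, PD-1 high. Blockade of IFNAR1, which is part of the type I interferon receptor, was represented by 4 samples and treatment with control anti-rat IgG by 3, with doses given 2 times a week for 4 weeks. All mice were uninfected B6/Sle1.Yaa animals, 5 months old. Both groups therefore carry Sle1, a lupus susceptibility locus, and Yaa, a translocation that adds a copy of X-linked genes including Tlr7, and no strain without these alleles was part of the comparison. The antibody is spelled anti-IFNA1 in the sample labels, while the title has IFNAR1, the name kept here. Whether a sample held cells of 1 mouse or several is not given in the labels. The title places the question at the IL-21 and IFN-γ loci, and the interferon-stimulated genes are the textbook targets of the blocked receptor.

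Type I interferon binds the receptor chains IFNAR1 and IFNAR2, the attached kinases JAK1 and TYK2 phosphorylate STAT proteins, and these join IRF9 in a complex that binds the interferon-stimulated response element (ISRE) in promoters. A related element, the gamma-activated site (GAS), is known from the response to interferon gamma. The induced genes encode sensors of foreign RNA and DNA, enzymes and GTPases that block viruses and intracellular microbes, and regulators that feed back on the response. Chronic expression of this programme in blood cells is a feature of lupus.

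The list compares the anti-IFNAR1 side with the control IgG side and holds peaks higher on the anti-IFNAR1 side alone. A loss of accessibility cannot be seen in it. It gives 1 value per peak and none per sample, so the variation among mice is unknown and no test between conditions was run. Pileup, fold and q come from the authors' deposited table and are their own values. The pileup is the number of fragments over the peak summit, scaled down to the depth of the control side. Every pileup was a whole multiple of 0.283, which gives back the fragments and puts the anti-IFNAR1 side at 3.54 times the depth of the control side. The fold is the pileup over a control background, each with 1 added. Solving it for the background gave values that were whole control fragments at the site, whole fragments averaged over 1 kb or 10 kb, or a genome rate, of which this caller takes the highest. Coverage was thin. The listed peaks held 11 to 512 anti-IFNAR1 fragments. Anti-IFNAR1 fragments are given here without scaling, while control fragments and backgrounds are at the depth of the control side. The 2 numbers are therefore not to be divided directly. The fewest found over a background of 0.9 to 1.1 control fragments was 22, and the fewest over a background of 1.9 to 2.1 was 32. A gene without a row may have been as open, less open or too thinly covered to be listed.

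**Figure D1:**
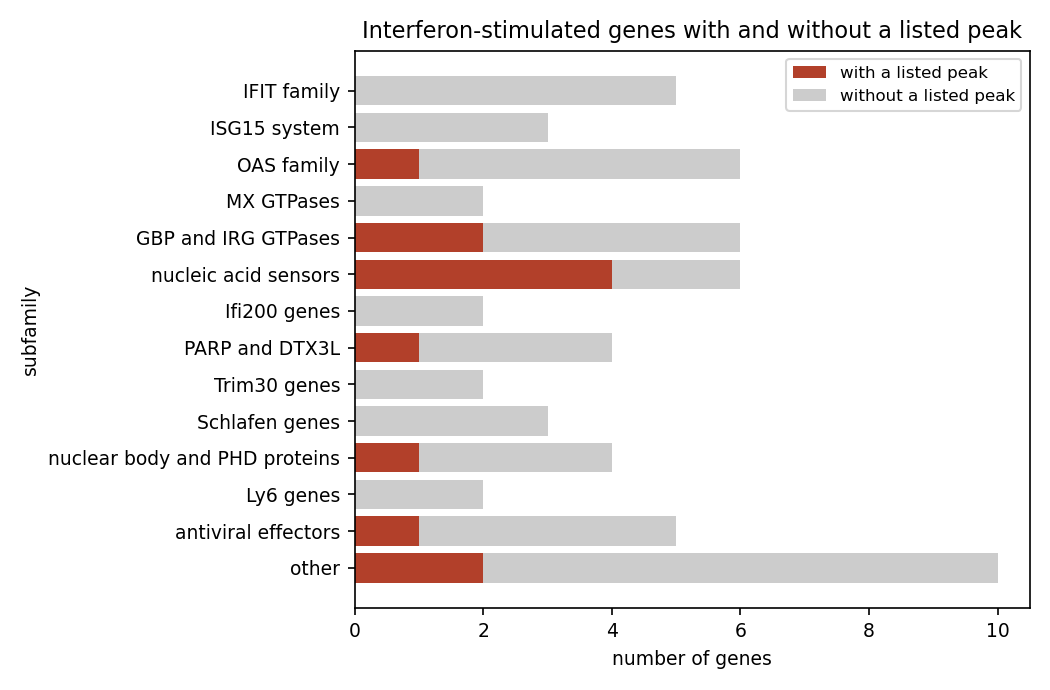
Number of genes (x axis) with a listed peak in red and without one in grey, for each subfamily (y axis). Nucleic acid sensors have 4 of 6 genes with a peak, and 7 of the 14 groups, the IFIT genes included, have 0. Of all protein-coding genes 20.4% have a peak, and no group holds more than 10 genes.

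Promoter sequence shows how the members differ in their ISRE. The searched core was GAAA, 2 bases of any kind and GAAA again, on either strand, so that TTTC, 2 bases and TTTC also counts, and cores that overlap each other count separately. The GAS was TTCNNNGAA, which reads the same on both strands. RefSeq promoter windows (GRCm38.p6) of 300 bases, from 250 before the start to 50 after it, were found for 46 of the 60 genes. The following stretches of 70 bases are from members with a listed peak. They run 5′ to 3′ in the direction of the gene, and capitals mark the ISRE core, or for Isg20 the GAS.
Irgm1 (chr11:48871408-48871477, minus strand): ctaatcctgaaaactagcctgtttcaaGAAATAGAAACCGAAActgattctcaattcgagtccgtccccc
Ifih1 (chr2:62646206-62646275, minus strand): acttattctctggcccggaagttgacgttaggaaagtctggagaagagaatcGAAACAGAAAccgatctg
Ddx58 (chr4:40239784-40239853, minus strand): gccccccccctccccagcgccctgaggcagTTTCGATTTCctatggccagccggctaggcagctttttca
Gbp3 (chr3:142559972-142560041, plus strand): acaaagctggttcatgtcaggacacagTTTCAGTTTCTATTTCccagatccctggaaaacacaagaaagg
Oas3 (chr5:120777695-120777764, minus strand): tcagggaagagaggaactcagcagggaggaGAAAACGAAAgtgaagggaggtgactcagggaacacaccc
Isg20 (chr7:78913320-78913389, plus strand): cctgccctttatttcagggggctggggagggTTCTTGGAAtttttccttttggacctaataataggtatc

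Members without a listed peak carried the same element. The stretches below are from 5 of them, with the ISRE core in capitals. Isg15 has 3 overlapping cores in a row, Oas1a and Bst2 have 2 overlapping cores each, and Ifit1 has 2 separate ones on the opposite strand. A GAS also lies in the Bst2, Igtp and Oas1a windows, and that of Bst2 shares bases with an ISRE core.
Isg15 (chr4:156200851-156200920, minus strand): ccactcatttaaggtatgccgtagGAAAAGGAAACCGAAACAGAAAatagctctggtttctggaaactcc
Ifit1 (chr19:34640764-34640833, plus strand): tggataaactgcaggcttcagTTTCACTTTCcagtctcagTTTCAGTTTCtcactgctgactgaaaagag
Oas1a (chr5:120907503-120907572, minus strand): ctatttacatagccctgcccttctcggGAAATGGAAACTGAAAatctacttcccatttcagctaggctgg
Bst2 (chr8:71537560-71537629, minus strand): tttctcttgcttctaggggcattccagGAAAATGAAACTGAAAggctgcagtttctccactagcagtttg
Igtp (chr11:58199492-58199561, plus strand): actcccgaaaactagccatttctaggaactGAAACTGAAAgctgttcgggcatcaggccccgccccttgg

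An ISRE core was present in 24 of the 46 members with a window (52.2%), against 3.94% of the 17492 protein-coding genes with a window. Members with and without a listed peak had it at similar rates, 5 of 9 (55.6%) and 19 of 37 (51.4%). A GAS was present in 9 of the 46 members (19.6%), against 8.92% of all genes. Of the 24 members with a core, 11 had at least 2 of them, counted over all windows of a gene. At Ddx58, Ifih1 and Eif2ak2 the core lay just downstream of the annotated start, and at the other 21 at least 1 core lay upstream. These matches describe letters in a window and not bound sites.

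The nucleic acid sensors, with Adar counted among them, were the subfamily with the most listed members, 4 of 6 with 5 peaks. Over all protein-coding genes 20.4% had a listed peak. The groups hold only 2 to 10 genes each, so this count is not a result about the sensors. Their folds ranged from 4.01 to 5.38 and their pileups from 5.65 to 11.87, with median values of 4.28 and 9.33. Over all listed peaks the median fold was 4.74 and the median pileup 11.59.

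Ddx58 encodes RIG-I, a cytosolic helicase that senses viral RNA. Its peak spanned chr4:40239941-40240597 (mm10) and was assigned to the transcription start site (TSS), with 20 anti-IFNAR1 fragments, 0 control fragments at the site and 1 control fragment in the surrounding 1 kb. The fold was 5.38 and the q 0.000372. This peak lay wholly upstream of the annotated start, and the ISRE core printed above was 119 bp outside it.

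Ifih1 encodes MDA5, the sensor of long double-stranded RNA. Its TSS peak spanned chr2:62646217-62646608, with 28 anti-IFNAR1 fragments, 0 control fragments at the site and 4 in the surrounding 1 kb. The fold was 4.59 and the q 0.00750. The summit stood 35 bp upstream of the start, and 6 of the 10 bases of the ISRE core fell inside the edge of the peak. No other listed peak lay within 1001 kb of the gene.

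Zbp1 encodes a sensor of Z-form nucleic acid that can trigger cell death. Its TSS peak spanned chr2:173218862-173219322, with 33 anti-IFNAR1 fragments against a control background of 1.42. Its fold was 4.28 and its q 0.00313.

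Adar encodes the RNA editing enzyme that converts adenosine to inosine and so hides self RNA from MDA5. It is transcribed from several promoters, and its long isoform is the interferon-induced one. An upstream peak spanned chr3:89714604-89715055 with 42 anti-IFNAR1 fragments against a control background of 2.12, where the fold was 4.12 and the q 0.00313. A downstream peak at chr3:89730726-89731117 had 39 anti-IFNAR1 fragments against 2 control fragments at the site, a fold of 4.01 and a q of 0.00184. The file assigned each to the TSS of a different Adar transcript. The depth-scaled ratios of anti-IFNAR1 over control coverage were 5.59 (95% interval 2.68 to 13.1) upstream and 5.51 (1.43 to 47.1) downstream, and the second interval holds the whole of the first. The downstream peak contained a GAS, 22 bp after the start of that promoter, and no ISRE core was found in the 3 Adar windows. The remaining sensors, Dhx58, which encodes the RIG-I relative LGP2, and Eif2ak2, which encodes the kinase PKR, had no peak. The nearest listed peak lay 31.9 kb from Dhx58, at Rab5c, and 14.9 kb from Eif2ak2, at Gpatch11.

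Among the interferon-induced GTPases, Irgm1 and Gbp3 were listed and Gbp2, Gbp7, Igtp and Ifi47 were not. Irgm1 encodes an immunity-related GTPase that controls its family on intracellular membranes. Its TSS peak spanned chr11:48871202-48871923, with 38 anti-IFNAR1 fragments against 1 control fragment at the site, a fold of 5.87 and a q of 2.85e-05. Irgm1 was the only one of the 24 members with an ISRE core at which a core lay wholly inside a listed peak. Both of its overlapping cores did, with first bases 24 and 30 bp before the start, and the summit stood 74 bp before it.

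Gbp3 encodes a guanylate-binding protein, a GTPase that assembles on vacuoles of microbes. Its peak was the weakest of the 13 by fold and by q. It spanned chr3:142560881-142561121 with 25 anti-IFNAR1 fragments against a control background of 1.18. The fold was 3.70 and the q 0.0261. The file placed it 113 bp before a short Gbp3 transcript, 629 bp downstream of the nearest start with a RefSeq window, and the ISRE cores of the gene were 868 bp or more away from the peak. The same cluster on chromosome 3 held a peak at Gbp5, with a fold of 4.90. Gbp7 had its nearest listed peak 10.7 kb away, at Gbp3, and Gbp2 59.5 kb away, also at Gbp3.

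Igtp encodes Irgm3, a membrane-associated GTPase. Its own promoter, with 1 ISRE core and a GAS, had no listed peak. A peak 3.63 kb from the gene was assigned to the 5′ UTR exon of its neighbour Irgm2, at chr11:58211216-58211852, with 30 anti-IFNAR1 fragments and 0 control fragments at the site, a fold of 5.55 and a q of 0.000143. The promoter windows of Igtp and Irgm2 share a stretch of at least 50 identical bases, and whether reads were lost there by matching both genes was not tested. Ifi47 lay 24.9 kb from the nearest listed peak.

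Of the OAS family, enzymes that make oligoadenylates to switch on RNase L and their inactive relatives, Oas3 alone of 6 genes was listed. Its peak lay in intron 1, at chr5:120775624-120775905, 1828 bp downstream of the start, with 17 anti-IFNAR1 fragments and 0 control fragments at the site. That was the lowest fragment number of the 13 peaks. The fold was 4.70 and the q 0.00577. The ISRE core of the Oas3 promoter was 1820 bp from the peak. Oas1a and Oas1g, whose promoters share a stretch of at least 50 bases, lay over 100 kb from any listed peak, Oas2 25.7 kb, Oasl1 73.7 kb and Oasl2 72.7 kb.

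Parp9 had the strongest peak of the 13 by fold, pileup and q. It encodes an ADP-ribosyltransferase family member that works with the ubiquitin ligase DTX3L in DNA repair and interferon signalling. The TSS peak spanned chr16:35938782-35939809, with 51 anti-IFNAR1 fragments against a control background of 1.18. The fold was 7.07 and the q 3.07e-08, rank 825 of 6395 by q. Its fold lay at the 89.5th percentile of the list and its pileup at the 66.7th. Dtx3l runs in the opposite direction from a start at 35939027, inside this peak, and the peak covered all 300 bases of the Dtx3l promoter window. The peak thus stands at the starts of both genes and carries the name of Parp9 in the file. Parp14 and Parp12, of the same enzyme family, lay 61.6 kb and 86.9 kb from the nearest listed peak.

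Sp100 encodes a scaffold protein of the nuclear bodies that form around PML. Its TSS peak spanned chr1:85650021-85650527, with 22 anti-IFNAR1 fragments, 0 control fragments at the site and 8 in the surrounding 10 kb. The fold was 6.07 and the q 5.76e-06. Sp100 had the highest depth-scaled ratio, 32.9 (95% interval 14.1 to 85.6), against the average of the 10 kb window. With 0 control fragments at the site, the ratio there has a lower bound alone, 1.55. A promoter window of Sp100 shares at least 50 bases with that of Gm7609. The peak covered 16 and 42 bases of the 2 Sp100 windows, and whether it holds sequence shared with Gm7609 was not tested. Pml itself had no peak by name. The nearest stood 3.44 kb from the gene at the TSS of Stoml1, with 30 anti-IFNAR1 fragments against 1 control fragment and a fold of 4.74. Phf11b and Phf11d, PHD finger genes of a cluster on chromosome 14, lay over 100 kb from any listed peak.

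Of 5 antiviral effectors, Isg20, an exonuclease that degrades viral RNA, was listed. Its TSS peak spanned chr7:78913189-78913747, with 28 anti-IFNAR1 fragments, 0 control fragments at the site and 4 in the surrounding 1 kb, the same counts as at Ifih1. The fold was 4.59 and the q 0.00750. The peak contained the GAS printed above, 73 bp before the start. Bst2, which encodes tetherin and holds budding virus at the cell surface, lay 32.6 kb from the nearest listed peak. Rsad2, which encodes viperin, lay 27.5 kb away and its neighbour Cmpk2, a nucleotide kinase gene, 53.9 kb. Samd9l, a restriction factor gene, lay 1898 kb from the nearest one.

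Of the remaining 10 genes, Nmi and Tor3a were listed. Nmi encodes a STAT-interacting protein that pairs with IFI35. Its peak lay in a 5′ UTR exon at chr2:51972384-51972785, with 39 anti-IFNAR1 fragments against a control background of 1.18. Its fold was 5.52 and its q 1.71e-05. The summit stood 433 bp downstream of the annotated start. A further peak, labelled intergenic, lay 916 bp beyond the other end of Nmi at chr2:51946833-51947582, with 20 anti-IFNAR1 fragments over the genome rate of 0.132, where the fold was 5.88. Tor3a encodes an ATPase of the torsin family, and its TSS peak at chr1:156674002-156674890 had 47 anti-IFNAR1 fragments against 2 control fragments at the site, a fold of 4.76 and a q of 7.43e-05. Ifi35, the partner of Nmi, had no peak and lay 6.96 kb from one at Vat1. Ifi27, Ifi44, Rtp4, Xaf1, Epsti1, Lgals3bp and Ms4a4b had none, with gaps from 8.33 kb for Ifi27 to 443 kb for Ifi44.

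**Figure D2:**
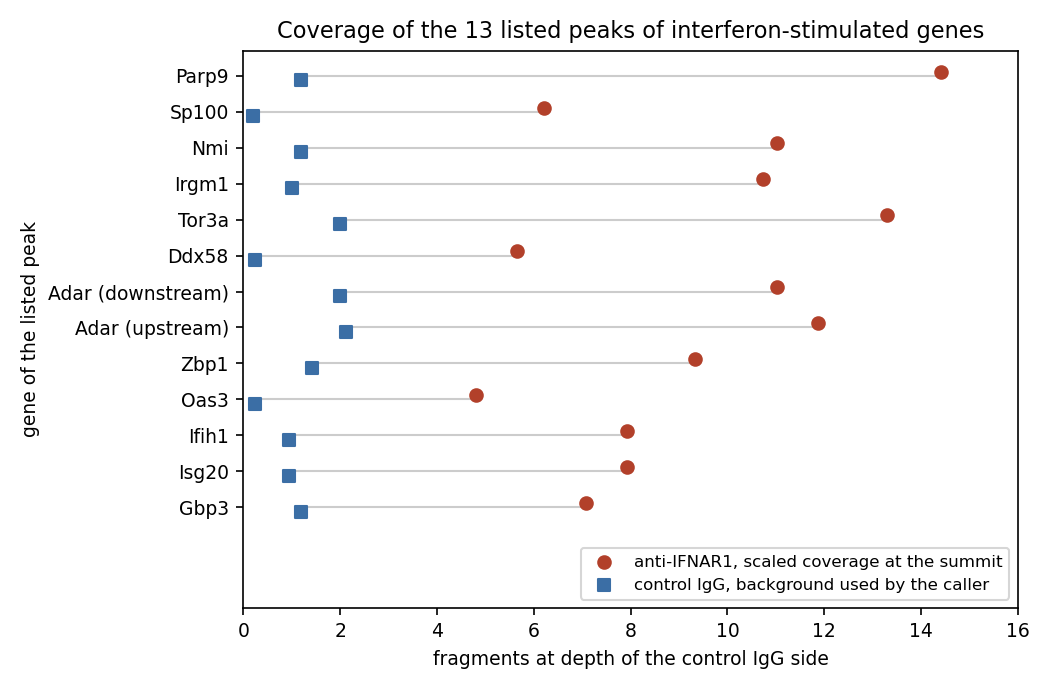
Scaled anti-IFNAR1 coverage at the summit (red circles) and the control IgG background used by the caller (blue squares) on the x axis, in fragments at the depth of the control side, for each listed peak, ordered by q from the smallest at the top. Scaled coverage runs from 4.81 at Oas3 to 14.42 at Parp9, and the backgrounds from 0.189 at Sp100 to 2.12 at the upstream Adar peak.

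By rank in the list, the folds of the 13 peaks lay between the 17.3rd percentile at Gbp3 and the 89.5th at Parp9. Their median fold was 4.70 (range 3.70 to 7.07), against 4.74 (range 2.08 to 34.4) over all 6395 peaks. Of the 13, 6 were above the list's median. Their median pileup was 9.33, against 11.59 over the list, and 3 of 13 were above the list's median, those of Parp9, Tor3a and the upstream Adar peak. The median length was 460 bp, against 539 bp over the list. Of the 13, 11 (84.6%) were assigned to a TSS, against 72.4% of all listed peaks, with 1 in an intron and 1 in a 5′ UTR exon. No member peak was intergenic, which matching by gene name does not allow.

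The control side had at most 2 fragments at each of the 13 sites. At 5 of them, those of Ddx58, Ifih1, Oas3, Sp100 and Isg20, it had 0. Across the list, 31.5% of peaks had 0 control fragments at the site, which was 38.5% for the 13. The lower bound of the ratio's exact interval exceeded 1 at 13 of 13 member peaks, as it did at 100% of listed peaks, and also when the most control fragments that the background allows were placed at the site (13 of 13, against 96.2% of listed peaks). Because peaks entered the list for high coverage over control, these ratios are tilted upward, and a bound above 1 restates the listing. The widest intervals belonged to Ddx58 (ratio 24.0, 3.83 to 993), Oas3 (20.4, 3.19 to 851) and Irgm1 (10.7, 1.81 to 435), each with 1 control fragment counted. The intervals cover counting error only, and copies made by PCR are not independent molecules.

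**Figure D3:**
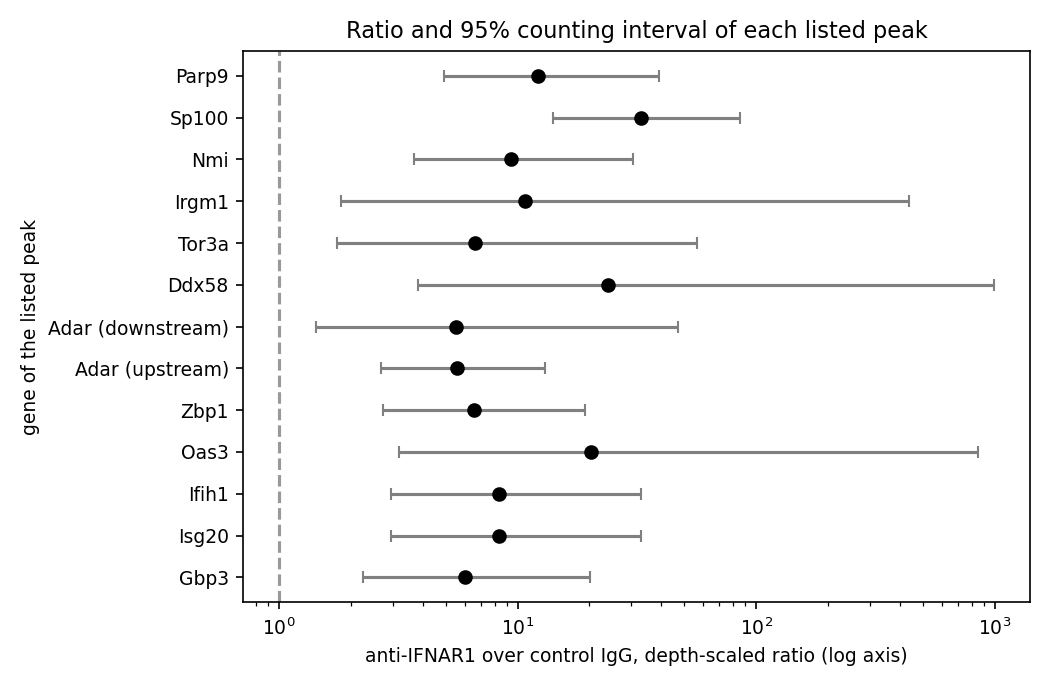
Depth-scaled ratio of anti-IFNAR1 over control IgG coverage on a log x axis, with the exact 95% counting interval as the bar, for each listed peak, using the control window the caller used. All pairs of the 13 intervals overlap except Sp100 (14.1 to 85.6) and the upstream Adar peak (2.68 to 13.1). Those 2 use different control windows, of 10 kb and 1 kb. With control fragments at the site, Sp100 has a lower bound alone, 1.55, and the upstream Adar peak has 1.54 to 50.6, so they overlap. The dashed line marks a ratio of 1.

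The 48 members without a row lay 0 to 1898 kb from the nearest listed peak. The median gap from gene to peak was 57.6 kb, 37 of 48 lay more than 20 kb away, and 13 more than 100 kb. These gaps were not measured for all genes, so they are not a result about the members. The 5 IFIT genes, whose products bind viral RNA ends, form a cluster on chromosome 19 in which the nearest listed peak, at Lipa, stood 23.1 kb from Ifit2, 55.7 kb from Ifit3, 65.5 kb from Ifit1bl1, 80.1 kb from Ifit3b and 113 kb from Ifit1. Herc6, which encodes the mouse ISG15 ligase, lay 26.6 kb away. Mx1 and Mx2 encode antiviral dynamin-like GTPases, are annotated by RefSeq as transcribed pseudogenes in the C57BL/6J genome, and lay 44.5 kb and 134 kb from a peak at Bace2. The Schlafen genes Slfn1, Slfn5 and Slfn8 lay 68.8 kb, 18.8 kb and 19.3 kb from one, Trim30a and Trim30d 93.6 kb and 155 kb. Ifi203 and Ifi204, DNA-binding proteins of the Ifi200 cluster, lay 429 kb and 256 kb away. Ly6e and Ly6a, which encode small anchored surface proteins, lay 24.1 kb and 64.0 kb away.

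Of the 48, 5 had a listed peak within 5 kb, namely Isg15, Usp18, Igtp, Pml and Dtx3l. Isg15, the ubiquitin-like modifier gene, had peaks on both sides that carried other names. The peak at Agrn, chr4:156197605-156198120, stood 1304 bp from the gene with 67 anti-IFNAR1 fragments against 2 control fragments and a fold of 6.65. The peak at AW011738 stood 2413 bp away with 47 against 3 fragments and a fold of 3.57. Neither covered the Isg15 promoter window with its 3 ISRE cores. Usp18, the ISG15 protease and a brake on the receptor, had a peak 1276 bp from the gene at the TSS of Gm44148, with 26 anti-IFNAR1 fragments against 1 control fragment and a fold of 4.17. With these neighbours counted, 17 of 60 members (28.3%) had a listed peak within 5 kb of the gene, against 29.1% of protein-coding genes. By annotated start, 12 of the 46 members with a window (26.1%) had a summit within 5 kb, against 25.2% of genes. Within 1 kb it was 9 of 46 (19.6%), against 23.0% of genes.

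**Figure D4:**
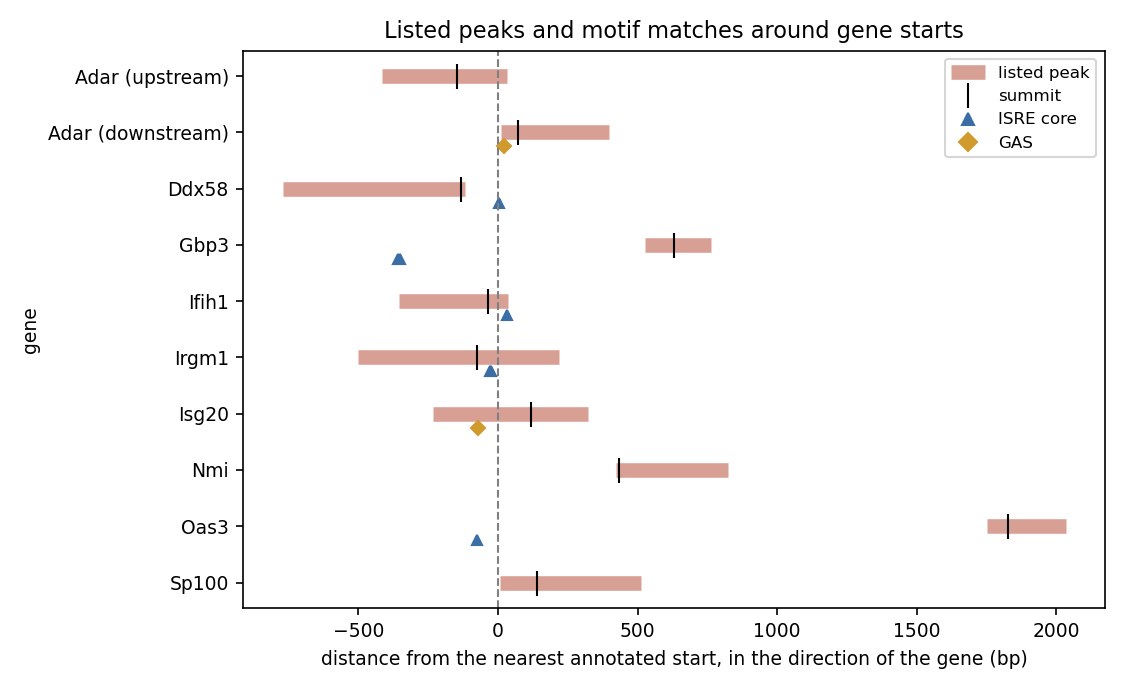
Listed peaks (red bars) and summits (black ticks) by distance in bp from the nearest annotated start, in the direction of the gene (x axis), for the 9 listed members with a promoter window, with ISRE cores as blue triangles and GAS as gold diamonds. Only the Irgm1 peak wholly contains ISRE cores, the GAS of Isg20 and of the downstream Adar promoter lie in their peaks, and the Oas3 peak stands 1828 bp downstream.

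Member promoters held few CpG dinucleotides, and the share of genes with a listed peak differed between CpG classes. A gene with several windows was given the highest count among them. The median gene had 4 CpG in the 46 members, against 15 in all genes. Listed members had a median of 7 and unlisted members 4, while over all genes listed ones had 24 and unlisted ones 10. Of all genes with at most 4 CpG in the window, 2.29% had a listed peak, against 14.9% with 5 to 14 and 33.8% with 15 or more. In the same classes 3 of 24 members (12.5%), 4 of 17 (23.5%) and 2 of 5 (40.0%) were listed. The members' share was above that of all genes in each class while the overall shares were alike. Each class rests on at most 4 listed members, so these shares are not a result about the members. The 3 listed members with at most 4 CpG were Gbp3, Oas3 and Sp100, and the peaks of Gbp3 and Oas3 lay outside the promoter window. These CpG classes were set with the data in view and carry no test.

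**Figure D5:**
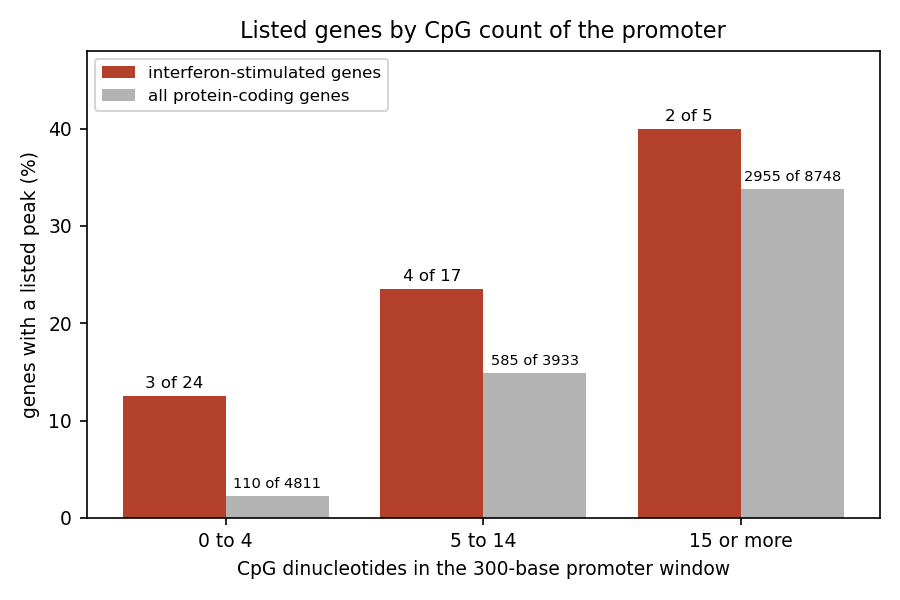
Share of genes with a listed peak (y axis, percent) by number of CpG dinucleotides in the promoter window of 300 bases (x axis). The number is the highest over the windows of a gene. Interferon-stimulated genes are in red and all protein-coding genes in grey, with gene counts above the bars. For all protein-coding genes the share climbs with CpG count, from 2.29% to 33.8%. For the interferon-stimulated genes it runs from 12.5% (3 of 24) to 40.0% (2 of 5), too few genes for a result about them.

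Of 18 receptor and signalling genes, which carry the signal to the targets, 11 (61.1%) had a peak, where 20.4% of all protein-coding genes had one. The median fold of their peaks was 4.05. No peak was assigned to Ifnar1 or Ifnar2, and Jak1, the receptor's kinase, had a fold of 3.82. Irf9, the DNA-binding subunit of the ISRE-binding complex, had 22 anti-IFNAR1 fragments, 0 control fragments at the site and a fold of 4.90. Stat2 and Tyk2 were not listed. Irf1 had 2 peaks, with folds of 3.23 and 4.22, and Irf7, the amplifier of the response, had a fold of 3.85. Irf2 (folds 6.44 and 3.73), Irf3 (5.61) and Irf8 (5.88) were also listed, as were the feedback inhibitors Socs1 (fold 2.53), Socs3 (4.51) and Ptpn2 (3.84). Of 8 ligand genes, Ifng alone was listed, with a fold of 4.74.

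Of 64 further interferon-stimulated genes outside the 60, 23 were listed (35.9%), beside the same 20.4% of all protein-coding genes, and the median fold of their peaks was 5.16. The smallest q values were at Sp140, a nuclear body gene next to Sp100, with 83 anti-IFNAR1 fragments against a control background of 1.89 (fold 8.47), and at Trex1, a DNA exonuclease gene, with a fold of 6.43. Psmb10, an immunoproteasome subunit gene, followed with 7.87, then Rnf213, a ubiquitin ligase gene, with 5.70 in an intron, and Shisa5 with 5.57. These shares describe lists that were drawn up with earlier results known, and no difference between lists was tested.

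Marker genes of the labelled cell type were present in the list. Of 14 Tfh markers 10 were listed, Cd4, Cd3e, Pdcd1 and Bcl6 included. Cxcr5, Icos, Il21 and Cd40lg had no row by name, and 13 of the 14 had a listed peak within 5 kb. Of 8 B cell markers and of 8 CD8 T and NK cell markers 0 were listed by name, and 1 of each set had a listed peak within 5 kb. At the 20.4% of all protein-coding genes, lists this short hold few listed genes. Myeloid markers had 2 of 8, Cebpa (fold 5.41) and Cd14 (4.13), and plasmacytoid dendritic cell markers 2 of 5, Irf8 and Runx2. Regulatory T cell markers had 2 of 4. Among the Tfh markers the smallest q was at Maf, with a fold of 4.82. The list holds gains alone, so a marker without a peak is not shown to be closed. More cells of a type and more opening per cell cannot be told apart in these bulk samples, and the part of cell composition in the peaks was not tested.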

How the data were processed

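ATAC-seq was run on 7 samples, 4 anti-IFNAR1 and 3 control IgG, grouped by treatment label. Per the submitters' processing notes, the tools were DESeq2, bedtools, DiffBind 2.0.7, MACS2 2.1.0.20150420 and BWA 0.7.9a, on build mm10, without role or order. The sources used here do not give the handling of duplicates or transposase offsets. The file is 1 peak list, and each side was assumed to pool its group. The authors deposited, per the file headers, a pileup signal and a fold (a ratio over background). That the fold adds a pseudocount of 1 to each side was inferred from the values. The authors' −log10 p and q stand in 2 deposited columns with damaged headers, recognised by their values and order. Lengths and distances to transcripts were also deposited. Coordinates are as the file gives them, with length equal to end minus start.

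Fragments were recovered from the pileup step (largest misfit 0.00497) with a fragment length of 236 bp, and the recovery was checked on simulated data. The depth per sample is unknown. With the caller's default mouse genome size, the anti-IFNAR1 side would hold about 3700000 fragments and the control side about 1050000. Ratios have exact conditional binomial 95% intervals. Genes were matched by symbol to RefSeq (GRCm38.p6), with 21887 protein-coding genes, and all 60 members matched, 58 of them as protein-coding. The design assumed no columns per sample, and none were found, so alternatives without single replicates were not possible. Members and lists were chosen with earlier results of these data known. The text names every member, signalling genes with a peak except 1 that is not reported here, and the 5 other interferon-stimulated genes with the smallest q. Python 3.11.15, pandas 2.3.3, scipy 1.17.1 and matplotlib 3.10.9 were used.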

Additional observations from a re-analysis of the deposited data

How the results depend on the processing

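The number of members with a peak was 11 at a q of at most 0.01 (17.5% of protein-coding genes), 10 with TSS peaks alone (17.9%), 12 with synonyms (21.1%), 17 with peaks within 5 kb of the gene (29.1%), and 12 with peaks whose ratio interval at the site exceeded 1 (19.9%), the last added with the data in view. It was 0 with a pileup of at least 20, against 3.12% of protein-coding genes, since the highest pileup of a member peak was 14.42. The TSS share was 83.3% at the stricter q, against 84.6%, and no member peak was left to give it at the higher pileup. The median fold lay between 4.59 and 4.73 under its alternatives. The looser ISRE core, GAAANNGAA, was in 27 of 46 members, against 9.43% of genes. With under 10 CpG dinucleotides as the limit, 13.9% of 36 members were listed, against 4.84% of genes. At the 5 sites with 0 control fragments, the ratio at the site has a lower bound alone, from 1.17 at Oas3 to 2.01 at Ifih1 and Isg20. A search of peak sequences was not run, since no genome sequence was used here. No paired analysis was possible because no column carries a sample or a replicate number. Depth limits all counts: with at most 2 control fragments at a member site, single fragments move the ratio.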

Other observations

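Across the genome, an ISRE core in the promoter window did not go with more frequent listing. Of 689 genes with a core, 127 (18.4%) had a listed peak, against 21.0% of 16803 genes without one. Leaving out the 24 interferon-stimulated members, it was 122 of 665 (18.3%). Genes with a core had a median of 8 CpG dinucleotides in the window, against 15 in genes without one. Listing differed between CpG classes, and the comparison was not made within them.

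Several members share promoter sequence with another gene. A stretch of at least 50 identical bases was shared by Ifit1 with Ifit1bl2, Ifit3 with Ifit3b, Oas1a with Oas1g, Trim30a with Trim30d, Igtp with Irgm2, Ifi203 with Mndal, Phf11b with Phf11a, Ifi44 with Npr3 and Sp100 with Gm7609. Of these members Sp100 alone was listed, beside 9 of all 46 members with a window and 20.9% of all genes with one. So few genes give no result about shared sequence. How reads matching both copies were counted is unknown, and their part in the missing peaks was not tested.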
